A study of Homo sapiens with 8 samples.

Results

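The expression of 10 imprinted genes was examined across 3 SH-SY5Y lines. The genes were chosen by name, and all 10 were found among the 47591 gene entries of the table. They are H19, IGF2, CDKN1C and KCNQ1OT1 on chromosome 11, MEG3 and DLK1 on chromosome 14, PEG3 on chromosome 19, PEG10 and MEST on chromosome 7, and NNAT on chromosome 20. PEG3 is counted in a joint entry with its neighbour ZIM2, so its values hold the reads of both genes.

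SH-SY5Y is a human neuroblastoma cell line from ATCC, and polyadenylated RNA was sequenced from 3 libraries of the G2 line, 3 of the scramble (SCR) line and 2 of the WT line. G2 cells received CRISPR/Cas9 with a guide against the splicing factor gene PRPF40B, were selected with puromycin and were grown from a colony isolated by limiting dilution, so G2 is a single edited line. SCR cells received the same machinery with a scrambled guide, and both modified lines were kept in puromycin. WT cells were not modified, so editing, selection and culture history cannot be told apart in any comparison with WT. All lines grew in high-glucose DMEM with 10% fetal bovine serum. The replicates are labelled as biological, with no further word on how the cultures were kept apart, and p-values measure only the spread between these libraries. PRPF40B itself stood at 840, 841 and 918 normalized counts in G2, at 1686, 1672 and 1669 in SCR and at 1972 and 1668 in WT, lowest in the 3 G2 libraries.

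An imprinted gene is transcribed mainly from the copy of one parent, and the choice is kept by DNA methylation that is set in the germ line. Imprinted genes lie in clusters, where a control region and often a long non-coding RNA act on several neighbours. Many of them regulate fetal growth, and neural crest tumours and their cell lines often express several at high levels. The libraries measured total RNA of each gene and did not separate the parental copies, so the values are levels and not imprinting states. In RNA from a whole culture, fewer cells that express a gene and less of its RNA per cell cannot be told apart.

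The regions upstream of 3 members are shown first, to set the CpG content of their start sites beside their levels. These were the only members with promoter sequences in the RefSeq tables used. Each run is the 250 bases before a RefSeq start site on GRCh38.p14, 5′ to 3′ on the gene's strand, with CpG dinucleotides in capitals. H19 was at its lowest in G2, and MEG3 was listed at 0 in 7 of 8 libraries. MEST, which has an upstream and an inner group of start sites, was the member that differed most between lines. RefSeq lists 5 start sites for MEST, and the inner one shown lies 5883 bases downstream of the first.
H19, chr11:2001267-2001516, minus strand: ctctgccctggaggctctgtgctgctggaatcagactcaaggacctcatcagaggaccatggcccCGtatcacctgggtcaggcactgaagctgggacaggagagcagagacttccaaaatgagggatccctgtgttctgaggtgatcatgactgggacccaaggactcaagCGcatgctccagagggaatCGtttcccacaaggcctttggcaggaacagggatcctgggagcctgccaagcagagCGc
MEG3, chr14:100825858-100826107, plus strand: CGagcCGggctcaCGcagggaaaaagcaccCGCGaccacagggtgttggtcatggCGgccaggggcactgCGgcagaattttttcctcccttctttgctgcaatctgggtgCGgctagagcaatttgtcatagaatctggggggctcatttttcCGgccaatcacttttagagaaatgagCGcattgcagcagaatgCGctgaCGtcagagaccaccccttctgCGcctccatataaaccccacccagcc
MEST upstream start, chr7:130485925-130486174, plus strand: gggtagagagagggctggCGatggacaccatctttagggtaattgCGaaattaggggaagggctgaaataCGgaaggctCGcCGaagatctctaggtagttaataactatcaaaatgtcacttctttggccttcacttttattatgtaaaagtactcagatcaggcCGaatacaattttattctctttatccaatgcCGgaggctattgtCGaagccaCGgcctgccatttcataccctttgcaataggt
MEST inner start, chr7:130491808-130492057, plus strand: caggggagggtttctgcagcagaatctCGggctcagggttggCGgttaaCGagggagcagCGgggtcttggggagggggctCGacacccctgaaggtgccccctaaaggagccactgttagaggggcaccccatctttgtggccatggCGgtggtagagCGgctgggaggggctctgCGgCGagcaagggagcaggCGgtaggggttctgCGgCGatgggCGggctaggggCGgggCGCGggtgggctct

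The H19 window held 4 CpG, the MEG3 window 13, the upstream MEST window 9 and the inner MEST window 16, against a median of 11 over 35116 such windows. The share of all windows with at most that many CpG was 34.3% for H19, 55.2% for MEG3, 47.8% for the upstream and 61.0% for the inner MEST start. The MEST windows not shown held 20 CpG at 172 bases after the first start, 11 at 5154 bases and 20 at 5910 bases. The upstream and inner MEST starts therefore did not separate by CpG count. The hexamer TGCCGC, the core motif read by the imprint-keeping factor ZFP57, occurred on either strand of 12.7% of all windows and, among the 4 windows shown, only in that of MEG3. Of the other MEST windows, that of the start 172 bases after the first also held it. The MEG3 window also held the cAMP response element TGACGTCA, found in 1.65% of windows, and the TATA box TATAAA, found in 10.7%. GC boxes of the form GGGCGG, found in 42.6% of windows, occurred 2 times in the inner MEST window and in none of the other 3. A match is a stretch of letters and not a measured site.

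MEST and H19 are also hosts of microRNAs, short RNAs that pair with messenger RNAs through bases 2 to 8. These are given with that seed in capitals because they are cut from transcripts of these 2 members. The libraries did not measure mature microRNAs.
hsa-miR-335-5p, from MEST, chr7:130496126-130496148: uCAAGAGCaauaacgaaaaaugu
hsa-miR-335-3p, from MEST, chr7:130496162-130496183: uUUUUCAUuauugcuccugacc
hsa-miR-675-5p, from H19, chr11:1996800-1996822: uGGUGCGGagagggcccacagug
hsa-miR-675-3p, from H19, chr11:1996768-1996787: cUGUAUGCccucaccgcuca
No 2 of these 4 seeds are the same.

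Levels are given as normalized counts, that is the counts of a library divided by its DESeq2 size factor, and are not scaled to gene length. Recovered totals ran from 59804395 to 81080747 counts per library. Fold changes come from limma on log2(normalized count + 1), fitted to the 18947 genes whose mean was 10 or more, with Benjamini-Hochberg adjustment over these genes. Differential expression (DE) required a change of 1.5-fold or more together with an adjusted p no higher than 0.05. Of the 10 members, 9 passed the filter on the mean, and MEG3 did not. In G2/SCR, 6 members were DE, 2 upregulated and 4 downregulated, where 25.0% of all tested genes were DE. In G2/WT, 6 members were DE, 1 upregulated and 5 downregulated, against 28.2% of all genes. In SCR/WT, which compares the controls, 4 were DE, against 13.8% of all genes, of which 1 was upregulated (8.95% of all genes) and 3 were downregulated (4.83%). The median log2 fold change of the tested members was -0.10 in G2/SCR, -1.10 in G2/WT and -0.42 in SCR/WT, where the medians over all tested genes were -0.01, 0.00 and 0.01. MEST rose in G2 and IGF2, H19 and NNAT fell against WT, so the members moved in both directions. The 2 comparisons with G2 share its libraries, as the 2 with WT share those of WT, and they are not independent of each other.

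**Figure D1:**
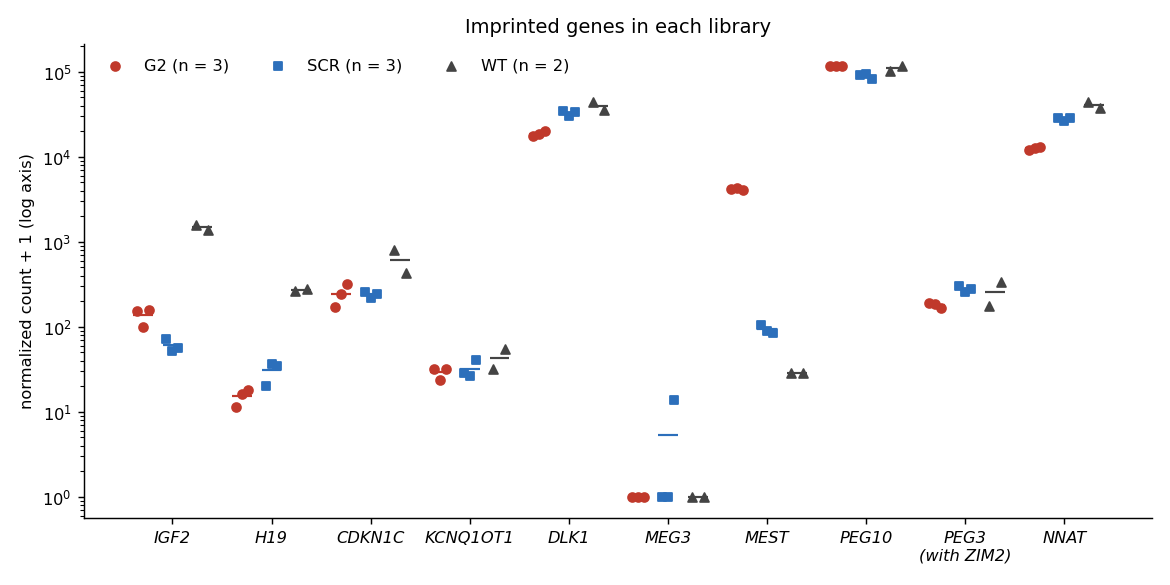
Normalized counts plus 1 (log axis) of the 10 imprinted genes in each library, as red circles for G2, blue squares for SCR and black triangles for WT, with a bar at the group mean. MEST stands between 4084 and 4340.5 in the 3 G2 libraries and between 27.3 and 27.8 in WT, IGF2 and H19 stand highest in WT, and MEG3 is listed at 0 in 7 of 8 libraries.

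**Figure D2:**
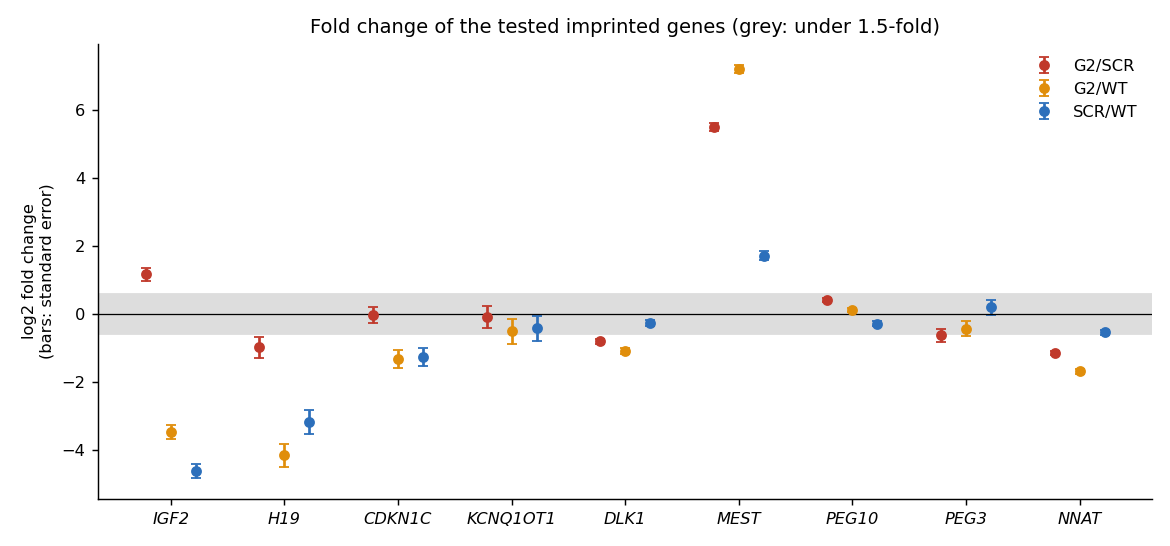
Log2 fold changes of the 9 tested imprinted genes in G2/SCR, G2/WT and SCR/WT, with limma standard errors as bars and changes under 1.5-fold shaded grey. MEST lies at 5.49 and 7.20 in the G2 comparisons, and IGF2 is the gene whose G2/SCR change of 1.16 runs opposite to its G2/WT change of -3.47.

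MEST, the mesoderm specific transcript, encodes an alpha/beta hydrolase-like protein of the endoplasmic reticulum, is normally transcribed from the paternal copy and is known as a marker of mesodermal and growing fat tissue. Its entry spans chr7:130486175-130506465 (hg38, plus strand). It held 4164, 4340.5 and 4084 normalized counts in G2, 105, 89.2 and 84.6 in SCR, and 27.3 and 27.8 in WT. The 3 lines did not overlap, and G2 stood far above both controls. The rise was 44.8-fold in G2/SCR, a log2 fold change of 5.49 with a standard error (SE) of 0.11 (limma, adjusted p = 1.1e-11). It was 147-fold in G2/WT (7.20, SE 0.12, limma, adjusted p = 1.4e-12). SCR was itself 3.28-fold above WT (1.71, SE 0.12, limma, adjusted p = 1.8e-06).

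The genes next to MEST did not all share this rise. COPG2, which encodes a coat protein of transport vesicles and overlaps MEST by 228 bases on the opposite strand, was DE in neither G2 comparison, with log2 fold changes of -0.06 against SCR and 0.13 against WT. The ratio of MEST to COPG2 within a library, which does not depend on library scaling, had a mean of 0.689 ± 0.0244 (SD, n = 3) in G2, 0.0146 ± 0.00120 (n = 3) in SCR and 0.00496 ± 0.000286 (n = 2) in WT. On the log2 scale G2 exceeded the 5 control libraries by 6.16 (exact two-sided permutation test, p = 0.018, the smallest that the 56 groupings allow, and 0.045 after adjustment over 5 ratios). MESTIT1, an antisense RNA within the MEST gene, was at 14.1, 13.1 and 9.67 in G2 and at 12.2, 14.1 and 6.80 in SCR, ranges that overlap, and was at or under the floor in WT. This floor is 9 recovered counts in a library, or about 3 fragments, since most small counts are multiples of 3.

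COPG2IT1, an RNA transcribed from within COPG2 37.0 kb beyond MEST (chr7:130543453-130546897), did rise. It held 104, 149 and 106 normalized counts in G2, 11.2, 2.82 and 6.80 in SCR, and 3.72 and 3.97 in WT. All 3 G2 libraries lay above all 5 controls, with a log2 fold change of 4.06 (SE 0.48) in G2/SCR (limma, adjusted p = 2.0e-05). SCR replicates 2 and 3 and both WT libraries were at or under the floor, so the size of this rise is uncertain. An entry without a symbol 20.9 kb beyond MEST was at 36.7, 29.6 and 25.8 in G2, and at or under the floor in every control library. These 2 entries were on none of the lists and were named after their values were seen. They were the only ones, among the 20 tested genes nearest to MEST that are on no list of imprinted genes, with a log2 fold change above 2 in G2/SCR. Over those 20 genes the medians were 0.18 against SCR and 0.09 against WT, with 4 DE upward and 1 downward in G2/SCR, and none changed as much as MEST in either comparison.

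IGF2, a fetal growth factor that signals through the IGF1 receptor, and H19, a long non-coding RNA, share enhancers and a methylated control region on chromosome 11, and are normally transcribed from opposite parental copies. IGF2 (chr11:2129112-2149603, minus strand) held 151, 98.5 and 155 normalized counts in G2, 70.4, 51.6 and 55.9 in SCR, and 1571 and 1389 in WT. WT was far above both modified lines, and G2 lay between SCR and WT with no overlap. IGF2 was 24.7-fold lower in SCR than in WT (log2 fold change -4.63, SE 0.21, limma, adjusted p = 4.9e-08) and 11.1-fold lower in G2 than in WT (-3.47, SE 0.21, limma, adjusted p = 6.3e-08). Against SCR, G2 was 2.23-fold higher (1.16, SE 0.19, limma, adjusted p = 2.9e-04). The sign of the IGF2 change in G2 therefore depended on the control line.

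H19 (chr11:1995176-2001466, minus strand) stood at 10.35, 15.3 and 17.2 in G2, 19.4, 35.7 and 34.0 in SCR, and 259.5 and 278 in WT. The order was WT, SCR and then G2, with no overlap between lines, although the lowest G2 library was close to the floor. H19 fell 9.08-fold in SCR/WT (log2 fold change -3.18, SE 0.35, limma, adjusted p = 3.8e-05) and 18.0-fold in G2/WT (-4.17, SE 0.35, limma, adjusted p = 1.1e-06). The G2/SCR change of -0.98 (SE 0.31, limma, adjusted p = 0.020) was not stable. It missed the threshold without G2 replicate 1 (adjusted p = 0.069), without SCR replicate 2 (0.080) or SCR replicate 3 (0.075), with limma on these 2 lines alone (0.062), and with edgeR (0.062) or DESeq2 (0.082) on recovered counts.

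The ratio of H19 to IGF2 on the log2 scale was -3.75, -2.61 and -3.10 in G2, -1.81, -0.52 and -0.70 in SCR, and -2.59 and -2.32 in WT. The G2 libraries lay below all 5 controls, narrowly so for WT replicate 1, and SCR lay above WT. The difference of -1.56 did not pass the test (exact two-sided permutation test, p = 0.054, adjusted over 5 ratios 0.089). IGF2-AS, transcribed across the IGF2 gene from the other strand, was at 63.3 and 18.9 in WT and at or under the floor in all G2 and SCR libraries, at least 4.17-fold lower in G2 and at least 4.47-fold lower in SCR. Without WT replicate 1 these bounds were 1.92 and 2.05. Of the 20 tested genes around H19 and IGF2 that are on no imprinted list, 2 were DE upward and 3 downward in SCR/WT, with log2 fold changes from -2.14 to 2.27. None changed as much as H19 or IGF2 in SCR/WT or in G2/WT, but in G2/SCR 4 of them changed at least as much as H19 and 3 at least as much as IGF2.

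Further along the same arm, CDKN1C encodes the cyclin-dependent kinase inhibitor p57, a brake on the cell cycle, and KCNQ1OT1 is the long non-coding RNA of its domain, transcribed from within the ion channel gene KCNQ1. CDKN1C (chr11:2883218-2885775, minus strand) was at 168, 239.8 and 315 in G2, 258, 216 and 244 in SCR, and 792 and 429 in WT. Both WT libraries were above all 6 others, while G2 and SCR overlapped. The log2 fold change was -1.32 in G2/WT (SE 0.26, limma, adjusted p = 1.3e-03) and -1.28 in SCR/WT (SE 0.26, limma, adjusted p = 2.9e-03). In G2/SCR it was -0.03 with an SE of 0.24 (limma, adjusted p = 0.924). The 2 WT libraries were far apart, and without WT replicate 1 the values were -0.87 in G2/WT and -0.84 in SCR/WT.

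KCNQ1OT1 (chr11:2608328-2699998, minus strand) was at 31.1, 23.0 and 31.2 in G2, 27.6, 25.3 and 39.3 in SCR, and 31.0 and 53.6 in WT. The 3 lines overlapped, and KCNQ1OT1 was DE in no comparison, with log2 fold changes of -0.10 (SE 0.33), -0.52 (SE 0.37) and -0.42 (SE 0.37) in G2/SCR, G2/WT and SCR/WT. Its span lies wholly within KCNQ1 on the opposite strand. The ratio of KCNQ1OT1 to CDKN1C differed by 0.28 on the log2 scale between G2 and the 5 controls (exact two-sided permutation test, p = 0.732, adjusted 0.732). The ratio was -4.63 and -2.98 in the 2 WT libraries, a spread wider than that difference.

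Other genes of the CDKN1C domain did rise in G2. PHLDA2, a growth-restraining gene of the placenta, was at 212, 242 and 263 in G2, at 12.2, 0 and 7.56 in SCR, and at 14.9 and 0 in WT. All G2 libraries were far above all controls, with log2 fold changes of 5.63 (SE 1.02, limma, adjusted p = 6.3e-04) in G2/SCR and 5.91 (SE 1.14, limma, adjusted p = 9.3e-04) in G2/WT. The size of these folds rests on the pseudocount, since control libraries were at 0 or near the floor. It was 4.49 in G2/SCR without SCR replicate 2, and 7.90 without WT replicate 1 and 3.91 without WT replicate 2 in G2/WT. OSBPL5, a lipid transfer protein, had means of 718 ± 8.98 (SD, n = 3) in G2, 188 ± 26.6 (n = 3) in SCR and 82.1 ± 5.12 (n = 2) in WT, and rose in all 3 comparisons, with log2 fold changes of 1.94 in G2/SCR, 3.12 in G2/WT and 1.18 in SCR/WT. SLC22A18, a membrane transporter, passed only in G2/WT (1.19, SE 0.30, limma, adjusted p = 5.5e-03), and KCNQ1 was DE in no comparison. CDKN1C therefore stayed at the SCR level in G2 while PHLDA2 and OSBPL5, on the same arm, were higher.

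**Figure D3:**
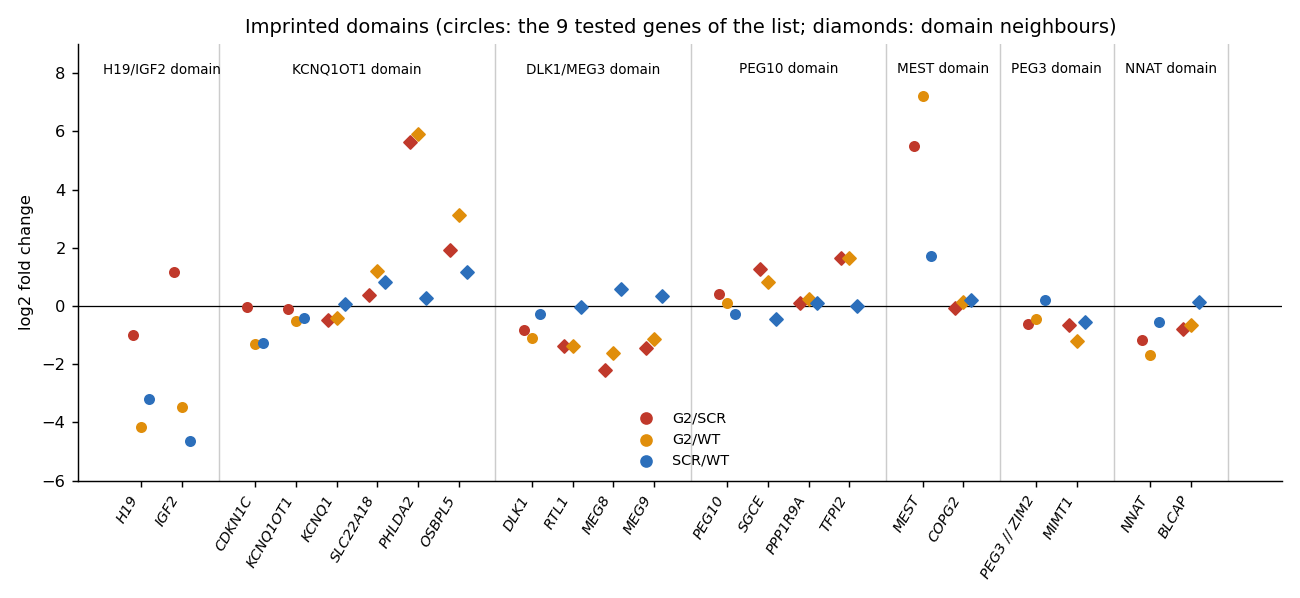
Log2 fold changes of the tested imprinted genes by domain, with circles for members and diamonds for their domain neighbours, coloured red for G2/SCR, orange for G2/WT and blue for SCR/WT. PHLDA2, whose 5.63 rests on the pseudocount because a control library was at 0, and MEST at 5.49 stand far above the rest in G2/SCR, and DLK1, RTL1, MEG8 and MEG9 all lie below 0 in both G2 comparisons. IGF2-AS and MESTIT1 are not drawn because whole groups were at the floor.

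DLK1, a Notch-like membrane protein of precursor cells that is high in neuroblastoma and adrenal medulla, and the long non-coding RNA MEG3 define the domain on chromosome 14. DLK1 (chr14:100726892-100738224, plus strand) held 17428, 18540 and 19933 normalized counts in G2, 34645, 30455 and 33176 in SCR, and 44193 and 35803 in WT. G2 lay below both controls without overlap. DLK1 fell 1.76-fold in G2/SCR (log2 fold change -0.81, SE 0.08, limma, adjusted p = 4.6e-06) and 2.14-fold in G2/WT (-1.10, SE 0.09, limma, adjusted p = 9.5e-07). In SCR/WT it was -0.28 (SE 0.09, limma, adjusted p = 0.030), under the fold threshold, and -0.01 when the libraries were scaled to equal totals.

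MEG3 (chr14:100826108-100861026, plus strand) was listed at 0 in 7 of 8 libraries, and SCR replicate 3 held 17 recovered counts, a normalized count of 12.8. That library was the deepest of the 8. The floors of the other libraries ran from 8.45 to 11.17 normalized counts, so levels under those values could not be seen, and MEG3 was not tested. No other entry of the annotation overlaps its span, and whether its reads were lost in the annotation or the counting was not tested. The domain was far from silent around it, since RTL1, a retrotransposon-derived gene of the paternal copy, held 26411, 28559 and 27768 normalized counts in G2, 76826, 68721 and 67771 in SCR, and 69820 and 73990 in WT.

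RTL1 fell together with DLK1. The log2 fold change of RTL1 stood at -1.36 in G2/SCR (SE 0.06, limma, adjusted p = 2.9e-09) and -1.38 in G2/WT (SE 0.07, limma, adjusted p = 7.5e-09), and -0.02 in SCR/WT. MEG8, a non-coding RNA downstream of MEG3, had means of 11.9 ± 1.89 (SD, n = 3) in G2, 58.1 ± 6.29 (n = 3) in SCR and 38.5 ± 5.28 (n = 2) in WT, and fell by 2.20 and 1.61 on the log2 scale in G2/SCR and G2/WT. MEG9 fell by 1.46 in G2/SCR (SE 0.46, limma, adjusted p = 0.021), and its change of -1.12 in G2/WT did not pass the test (SE 0.52, limma, adjusted p = 0.092). MEG9 was under the floor in G2 replicates 1 and 3, and MEG8 was close to it in G2 replicates 2 and 3. The sizes of the MEG8 and MEG9 falls are therefore uncertain. The spans of RTL1 and MEG8 share 14074 bases on opposite strands. Of the 20 tested genes around DLK1 on no imprinted list, 2 were DE downward in G2/SCR, with a median of -0.18, and 2 of the 20 changed at least as much as DLK1. One of these, MIR136, is the entry of a microRNA hairpin whose span lies wholly inside that of RTL1. Its G2 libraries held 10.35, 8.76 and 5.37 normalized counts, and replicates 2 and 3 were under the floor. Against SCR the change reached -1.28 (limma, adjusted p = 0.046). Against WT it was -0.99 and did not pass (limma, adjusted p = 0.15). Reads of RTL1 could have been counted for MIR136, so its change cannot be told apart from that of RTL1.

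PEG10, a retrotransposon-derived gene of the paternal copy that is needed for placenta formation, was abundant in all lines. Its entry (chr7:94656325-94669695, plus strand) held 117342, 118291 and 117800 in G2, 91219, 93692 and 83282 in SCR, and 101996 and 116644 in WT. The G2 libraries were above all 5 controls, narrowly so for WT. The change in G2/SCR was 1.32-fold (log2 fold change 0.40, SE 0.06, limma, adjusted p = 1.9e-04), which passed the p-value and not the fold threshold, and in G2/WT it was 0.11 (SE 0.07, limma, adjusted p = 0.202). In SCR/WT it was -0.29 (SE 0.07, limma, adjusted p = 6.8e-03), and -0.01 when the libraries were scaled to equal totals.

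SGCE, a sarcoglycan gene that starts 158 bases from PEG10 on the other strand, changed more. It had means of 6907 ± 58.5 (SD, n = 3) in G2, 2840 ± 89.7 (n = 3) in SCR and 3868 ± 361 (n = 2) in WT, and was DE upward in G2/SCR (1.28, SE 0.06, limma, adjusted p = 6.0e-09) and G2/WT (0.84, SE 0.07, limma, adjusted p = 7.9e-07). The log2 ratio of PEG10 to SGCE was 4.07, 4.10 and 4.10 in G2, 5.02, 4.99 and 4.91 in SCR, and 4.63 and 5.01 in WT. G2 lay below all controls by a mean of 0.82 (exact two-sided permutation test, p = 0.018, the smallest the design allows, adjusted over 5 ratios 0.045). TFPI2, a protease inhibitor gene of the same region, rose by 1.64 and 1.63 on the log2 scale in G2/SCR and G2/WT, from means of 44902 in SCR and 45131 in WT to 139975 in G2. PPP1R9A, an actin-binding protein of neurons, was DE in no comparison.

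NNAT encodes neuronatin, a small membrane proteolipid of the developing brain, and lies inside an intron of BLCAP on the opposite strand. NNAT (chr20:37521250-37523690, plus strand) held 12047, 12613 and 12999 normalized counts in G2, 28702, 26420 and 28501.5 in SCR, and 44113 and 37275 in WT. The order was WT, SCR and G2, with no overlap. It fell 2.22-fold in G2/SCR (log2 fold change -1.15, SE 0.07, limma, adjusted p = 3.5e-08) and 3.23-fold in G2/WT (-1.69, SE 0.07, limma, adjusted p = 3.5e-09). The SCR/WT change of -0.54 (SE 0.07, limma, adjusted p = 1.9e-04) was 1.46-fold, under the fold threshold. Without WT replicate 2 it was -0.66 and passed (limma, adjusted p = 8.4e-06), and with equal library totals it was -0.27.

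BLCAP, an apoptosis-related gene, also fell in G2, by 0.79 in G2/SCR (SE 0.07, limma, adjusted p = 1.8e-06) and 0.67 in G2/WT (SE 0.08, limma, adjusted p = 2.2e-05) on the log2 scale. The ratio of NNAT to BLCAP had a mean of 7.74 ± 0.243 (SD, n = 3) in G2, 9.91 ± 0.190 (n = 3) in SCR and 15.7 ± 0.106 (n = 2) in WT. The lines did not overlap, yet the difference of -0.62 on the log2 scale between G2 and the 5 controls did not pass the test (exact two-sided permutation test, p = 0.071, adjusted over 5 ratios 0.089). SCR and WT also differed from each other in this ratio, with 3.32, 3.28 and 3.33 against 3.97 and 3.98 on the log2 scale. Because the whole of NNAT lies within BLCAP, and the strand setting of the counting was not stated, reads of one could have been counted for the other.

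**Figure D4:**
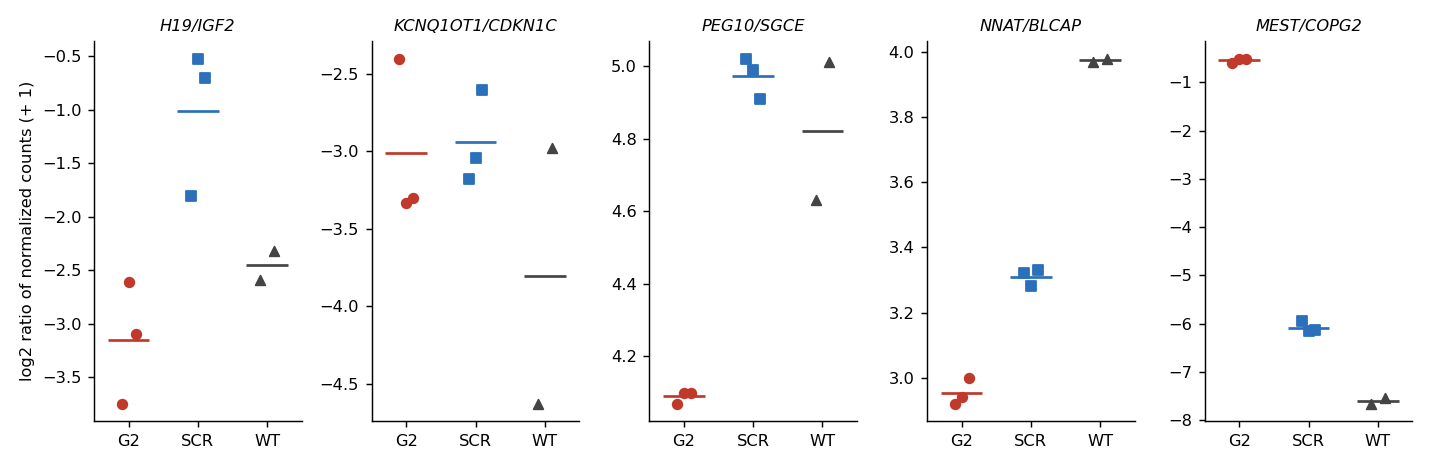
Log2 ratios of neighbouring genes within each library (normalized counts plus 1), 1 panel per pair with its own axis, for G2 (red), SCR (blue) and WT (black), with bars at the group means. The G2 libraries stand apart from all 5 controls for MEST/COPG2, PEG10/SGCE and NNAT/BLCAP, and overlap them for KCNQ1OT1/CDKN1C. For H19/IGF2 they stand apart only narrowly, with G2 replicate 2 at -2.61 and WT replicate 1 at -2.59.

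PEG3, a zinc finger protein of the paternal copy, was measured together with ZIM2 (chr19:56774552-56840726, minus strand). The joint entry held 187, 185 and 165 in G2, 301, 255 and 281 in SCR, and 176 and 337 in WT. G2 was below SCR without overlap, while the 2 WT libraries spanned both lines. The log2 fold change in G2/SCR was -0.64 (SE 0.20, limma, adjusted p = 0.018), and the call was lost without G2 replicate 3 (0.057), SCR replicate 1 (0.068) or SCR replicate 3 (0.053). In G2/WT it was -0.44 (SE 0.22, limma, adjusted p = 0.110) and in SCR/WT 0.19 (SE 0.22, limma, adjusted p = 0.534). Both values turned on the WT libraries. Without WT replicate 1 they were -0.91, which passed, and -0.27, and without WT replicate 2 they were 0.02 and 0.66, of which the second passed. MIMT1, a non-coding RNA of the PEG3 domain, was DE only in G2/WT (-1.20, SE 0.33, limma, adjusted p = 8.3e-03).

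Across the members, 5 had all 3 G2 libraries outside the range of the 5 controls, H19, DLK1 and NNAT below and PEG10 and MEST above. Of all tested genes, 42.5% met the same condition. Without overlap between the lines, 11709 of the tested genes (61.8%) differed in G2/SCR, and the members IGF2, H19, DLK1, PEG3, PEG10, MEST and NNAT met this condition too. In G2/WT the lines did not overlap for 65.4% of all genes, nor for the 7 members H19, IGF2, CDKN1C, DLK1, PEG10, MEST and NNAT. In SCR/WT they did not overlap for 55.3% of all genes and for the same 7 members. The neighbours of the members differed by position. Median log2 fold changes over the 20 tested genes around each member lay between -0.23 and 0.18 in G2/SCR, between -0.37 and 0.18 in G2/WT and between -0.31 and 0.32 in SCR/WT. Of the 20 around NNAT, 1 changed at least as much as NNAT in G2/SCR.

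**Figure D5:**
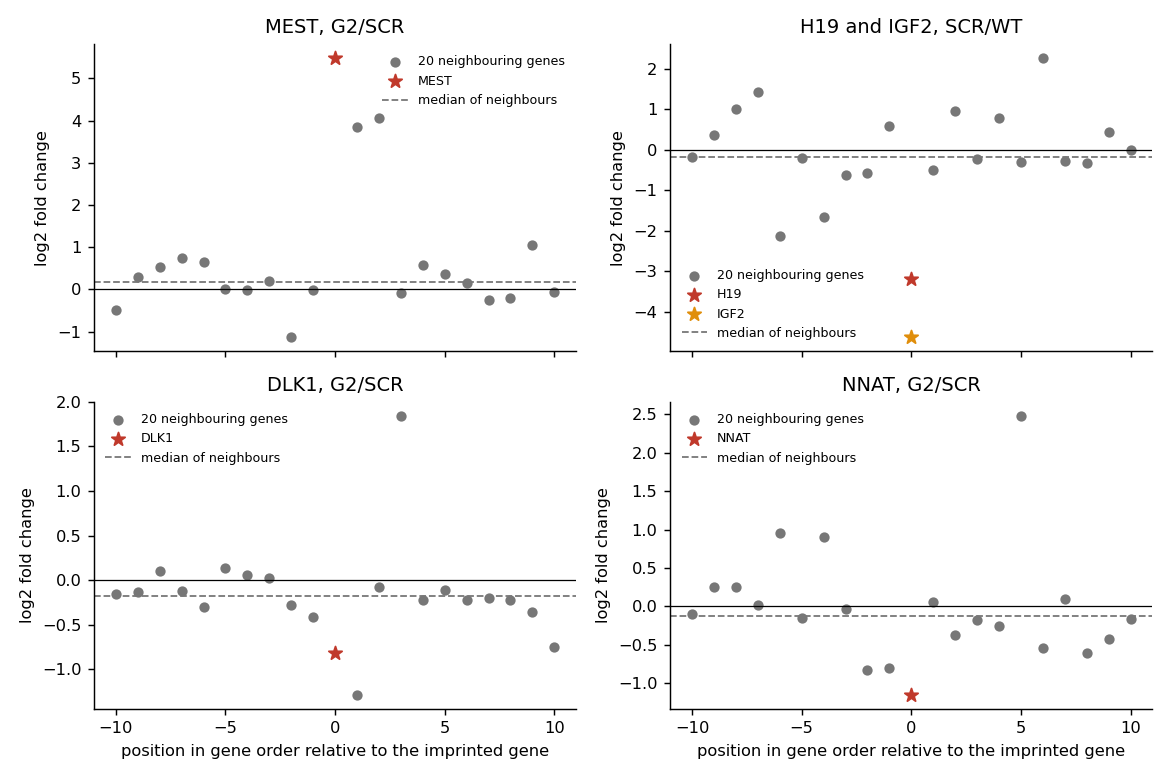
Log2 fold changes of 4 sets of members (stars) and of the 20 tested genes nearest to them that are on no imprinted list (grey), by gene order, with the neighbours' median dashed. MEST lies above all its neighbours, of which the first and second on its right are the next highest, and H19 and IGF2 lie below all theirs in SCR/WT.

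Levels of different members can be compared only per length, here as the mean normalized count per kb of GENCODE 44 exons, leaving out the joint PEG3 entry and MEG3. In WT the order was NNAT (30620), PEG10 (16343), DLK1 (7623), CDKN1C (246), IGF2 (207), H19 (77.6), MEST (5.78) and KCNQ1OT1 (0.457). CDKN1C at 173 to 319 per kb overlapped IGF2 at 194 to 220 per kb there, so this pair cannot be ordered. In SCR the order was NNAT (20974), PEG10 (13365), DLK1 (6243), CDKN1C (96.5), MEST (19.5), H19 (8.58), IGF2 (8.30) and KCNQ1OT1 (0.332), and H19 and IGF2 overlapped. In G2, PEG10 (17613) stood above NNAT (9446), followed by DLK1 (3551), MEST (880), CDKN1C (97.2), IGF2 (18.9), H19 (4.13) and KCNQ1OT1 (0.307). Against WT, MEST stood above CDKN1C, IGF2 and H19 in G2, while against SCR, where it was already above IGF2 and H19, it passed CDKN1C alone. PEG10 stood above NNAT in G2 and below it in both controls.

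The wider lists put these genes beside their relatives. Of 23 genes listed from the same domains, 16 were tested, among them the joint entry of PEG3 and ZIM2. In G2/SCR 4 of them rose and 5 fell, G2/WT had 5 of each and SCR/WT 1 of each, and the median log2 fold changes were -0.27, -0.14 and 0.16. INS, ASCL2 and USP29 were listed at 0 in every library. Of 37 imprinted genes listed from other loci, 25 entries were tested, and 4 rose and 6 fell in G2/SCR. G2/WT had 6 rises and 4 falls, SCR/WT had 3 rises, and the medians were 0.03, -0.14 and 0.02. Over all tested genes 14.3% rose and 10.7% fell in G2/SCR, 16.9% and 11.3% did in G2/WT, and 8.95% rose in SCR/WT. Those with a mean of at least 100 that were DE in the same direction in both G2 comparisons were IGF2R, DDC and NAP1L5. IGF2R, the receptor that removes IGF2 and sends it for breakdown, rose by 0.65 and 0.93 on the log2 scale in G2/SCR and G2/WT. DDC, which makes dopamine from its precursor, fell by 1.36 and 1.17, and the retrogene NAP1L5 fell by 0.99 and 0.97.

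Factors that write, read or erase the imprinting mark formed another list. Of 25 listed, 21 were tested, and HDAC1, TET1 and EZH2 were DE upward in G2/SCR, where 14.3% of all tested genes were, at 0.93, 0.72 and 0.87 on the log2 scale. In G2/WT the demethylase TET2 was DE upward (0.71) and the methylation maintenance factor UHRF1 downward (-0.81). UHRF1 was DE downward in SCR/WT too (-0.66), and its G2/SCR change of -0.15 did not pass (limma, adjusted p = 0.064). The other factor DE in SCR/WT was CTCFL, downward (-0.77). No factor met both the fold and the p threshold in both G2 comparisons. HDAC1, EZH2 and TET1 were higher in G2/WT too, at 0.47, 0.45 and 0.46, and TET2 in G2/SCR at 0.55, all past the p threshold of limma but changed less than 1.5-fold. DNMT1, which copies methylation at replication, was at means of 16300, 14944 and 22247 in G2, SCR and WT, and was DE in no comparison. It was lower in G2/WT (-0.45, limma, adjusted p = 1.4e-05) and SCR/WT (-0.57, limma, adjusted p = 7.7e-06). In G2/SCR it was higher (0.125, limma, adjusted p = 0.036), and all of these changes were under 1.5-fold. ZFP57, DNMT3L and DPPA3 were listed at 0 in every library. Among 16 listed partners of IGF2 and CDKN1C, such as insulin receptors and cyclin-dependent kinases, 13 were tested, 4 rose and 1 fell in G2/SCR, and IGF2R was DE in the same direction in both G2 comparisons. CDKN1B, the inhibitor p27, rose by 1.05 in G2/SCR and was 0.58 higher in G2/WT, just under the fold threshold (limma, adjusted p = 3.6e-06). CDK6 and CCNE2 rose in G2/SCR too, by 1.07 and 1.08, and were not DE in G2/WT, at -0.29 and 0.001. The inhibitor CDKN1A was the gene that fell in G2/SCR, at -0.835, while it rose by 1.56 in G2/WT. IGF1R, the signalling receptor of IGF2, was not DE, with log2 fold changes of 0.13 against SCR and 0.23 against WT.

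Levels of cell type markers also differed between the lines. Of 15 adrenergic neuroblastoma markers, all tested, 12 fell against SCR and 12 against WT, and their summed level ran from 285921 to 290119 in G2, 407163 to 417874 in SCR and 378669 to 393037 in WT. HAND2 and GATA3 remained expressed in every line, while TH was low throughout, with means of 1.88, 14.0 and 16.9 in G2, SCR and WT. Not every adrenergic marker fell. GATA3 stood higher in G2, by 0.37 relative to SCR and 0.28 relative to WT on the log2 scale. Both values were past the p threshold of limma but under 1.5-fold. STMN2, which added a mean of 165517 to the G2 sum, was at 0.50 relative to WT and -0.04 relative to SCR. Of 15 mesenchymal or fibroblast markers, 13 were tested, 11 rose in both G2 comparisons and 5 rose in SCR/WT, with a summed level of 364663 to 368696 in G2, 136779 to 143976 in SCR and 103569 to 117938 in WT. FN1 and TWIST2 were at or near 0 in all lines. TWIST1 went the other way in G2, at -0.39 relative to SCR and -0.34 relative to WT, both under 1.5-fold. VIM alone averaged 214430 in G2, 85197 in SCR and 59180.5 in WT, a large part of the mesenchymal sum. Of 9 Schwann cell markers 5 were tested, 3 rose and 1 fell in G2/SCR, GAP43 made up most of their summed level of 32475 to 33525 in G2 against 4639 to 5558 in the controls, and SOX10 was listed at 0. The part of these shifts in the levels of MEST, DLK1, NNAT and the other members was not tested.

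The WT libraries differed from the rest in another respect, since ribosomal RNA genes took 4.75% and 4.96% of their counts against 0.384% to 0.587% in the 6 other libraries. Scaling to equal totals moved the median log2 fold change of all genes to -0.10 in G2/SCR, 0.19 in G2/WT and 0.28 in SCR/WT. Calls of the members were then still 6, 6 and 4. The SCR/WT values of DLK1 and PEG10 were near 0 under that scaling, as given above, so neither has a direction that holds under both scalings.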

How the data were processed

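Polyadenylated RNA of 8 libraries was read in pairs on an Illumina NextSeq. Per the submitters' processing notes and the study's methods, the authors used STAR on hg38, then featureCounts (Subread 1.5.0) on FAST DB genes, and normalized with DESeq2. The deposited signal is therefore a normalized count of each gene in each library. The strand setting and the treatment of reads matching several genes were not given in the sources used here. All values were whole multiples of a library step between 0.7558 and 1.2416 (within 0.01 of a count), which gave recovered counts. The step of WT replicate 2 was too near 1 to check, so edgeR 4.0.16 and DESeq2 1.42.0 were run as alternatives on G2/SCR only. No 2 libraries were duplicates.

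The written design used edgeR for raw counts or limma for normalized values, and limma 3.58.1 in R 4.3.3 was used (pseudocount 1, mean of at least 10, 1 mean per line, trend). In simulated G2/SCR data of 18924 genes, 32.3% of genes changed 1.5-fold were recovered, 73.8% at 2-fold and 88.5% at 4-fold. Far fewer genes were changed in the simulation than were DE in the measured data. A true change of 1.5-fold also lies at the threshold of the call, so these shares need not hold for the measured data. Ratios of neighbouring genes were compared by exact permutation, and MEG3/DLK1 was left out because MEG3 was at 0 in 7 libraries. Named were all members, all tested genes of their domains, and up to 5 genes a list that moved the same way in both G2 comparisons with a mean of at least 100. Leaving out single libraries for PHLDA2 and IGF2-AS was added after seeing the data. Other listed genes named in the text were chosen after their values were seen. The members and lists were chosen with earlier results of these data known. Intervals and floors cover counting error only. Sequences were read from RefSeq tables (GRCh38.p14), which held promoters for 3 of the 10 members, and 9 of 9 windows equalled hg38.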

Additional observations from a re-analysis of the deposited data

How the results depend on the processing

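With a fold change of at least 2, 3 members were DE in G2/SCR, and the counts over all genes were 2780 in G2/SCR, 2997 in G2/WT and 1235 in SCR/WT. With a mean of at least 100 as the filter, G2/SCR gave 3086 DE genes and SCR/WT 1702. Leaving out 1 library gave 4 to 6 members in G2/SCR, 6 to 7 in G2/WT and 4 to 6 in SCR/WT. It moved the KCNQ1OT1/CDKN1C difference to between -0.057 and 0.449, and that of NNAT/BLCAP to between -0.697 and -0.521, past the threshold without WT replicate 1 (-0.524, exact permutation p = 0.029, unadjusted) or WT replicate 2 (-0.521, p = 0.029). Replicate numbers did not pair the samples, since same-numbered G2 and SCR libraries had correlations of -0.13, 0.05 and 0.15, and not every library correlated best with its own number. With the replicate number as a block, 6, 6 and 4 members and 4694, 5256 and 2454 genes were DE in G2/SCR, G2/WT and SCR/WT. Equal library totals gave 2362 genes up and 2536 down in G2/SCR, where the reported values were 2710 and 2019, 4323 and 1329 in G2/WT (reported 3197 and 2146), and 3579 and 339 in SCR/WT (reported 1696 and 916). Leaving ribosomal RNA genes out of those totals, an alternative chosen after seeing the data, gave 2364 and 2532, 3916 and 1560, and 2955 and 402. edgeR and DESeq2 each called 5 members in G2/SCR, without H19. No alternative turned a called direction. The cause of these shifts was not tested.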
